A study of Arabidopsis thaliana with 2 samples.

Results

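LEAFY (LFY) is the plant transcription factor that gives young floral meristems their identity. The intervals described here are the places that LFY bound on PCR-amplified Arabidopsis thaliana DNA and that were not listed as bound on native DNA. They are called ampDAP-only intervals. An interval of the amplified-DNA list was counted as ampDAP-only when its midpoint lay more than 200 bp from every midpoint of the native-DNA list on the same chromosome. This held for 291 of 4882 intervals, or 5.96% of the list, and the remaining 4591 are called the other ampDAP intervals. The members were thus chosen by the measured positions in both lists, so their number and their distance from DAP intervals are descriptions and not results.

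DAP-seq (DNA affinity purification sequencing) uses a tagged protein to capture fragments of naked genomic DNA in vitro, and the captured fragments are sequenced. The ampDAP library used PCR-amplified genomic DNA of 2-week-old seedlings, for which no genotype or transgene is named. The DAP library used sheared genomic DNA of 2-week-old 35S::LFY seedlings of the line CA26 #15, which carry LFY behind the constitutive 35S promoter of cauliflower mosaic virus. Both libraries used LFY with the 5XMyC epitope tag, made in vitro with a TnT transcription and translation system, and all seedlings grew in long days on Murashige and Skoog medium of 0.5 strength. Each kind of DNA has 1 library, so no test between the kinds of DNA was possible, and amplification, loss of methylation and plant source cannot be told apart. The native-DNA list holds 22514 intervals. Every interval of both lists is 400 bp wide and carries no score, so the depth and the strength of each peak are unknown.

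Native plant DNA carries methyl groups on cytosines in CG, CHG and CHH contexts, where H is any base but G, and PCR copies carry none. In Arabidopsis, dense methylation in all contexts is typical of transposons and repeats, which crowd around the centromeres. Many expressed genes carry methylation in the CG context alone, within their bodies, and their flanks are mostly free of it. LFY binds as a dimer through a carboxy-terminal domain.

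The ampDAP-only intervals were well separated from the native-DNA list. The distance from their midpoints to the nearest DAP midpoint ran from 217 to 71041 bp, with a median of 3040 bp (quartiles 1274 and 6154 bp). Only 12 of them overlapped a DAP interval at all, at 400 bp or less between midpoints, and 38 lay over 400 and up to 1000 bp away. The other 241 had no DAP midpoint within 1 kb, and 41 had none within 10 kb. The other ampDAP intervals had a median distance of 7 bp, 4069 of the 4591 within 20 bp. Few intervals lay close to the limit. The closest members were 217, 240 and 241 bp from a DAP midpoint, and the closest non-members were 181, 176 and 169 bp away.

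**Figure D1:**
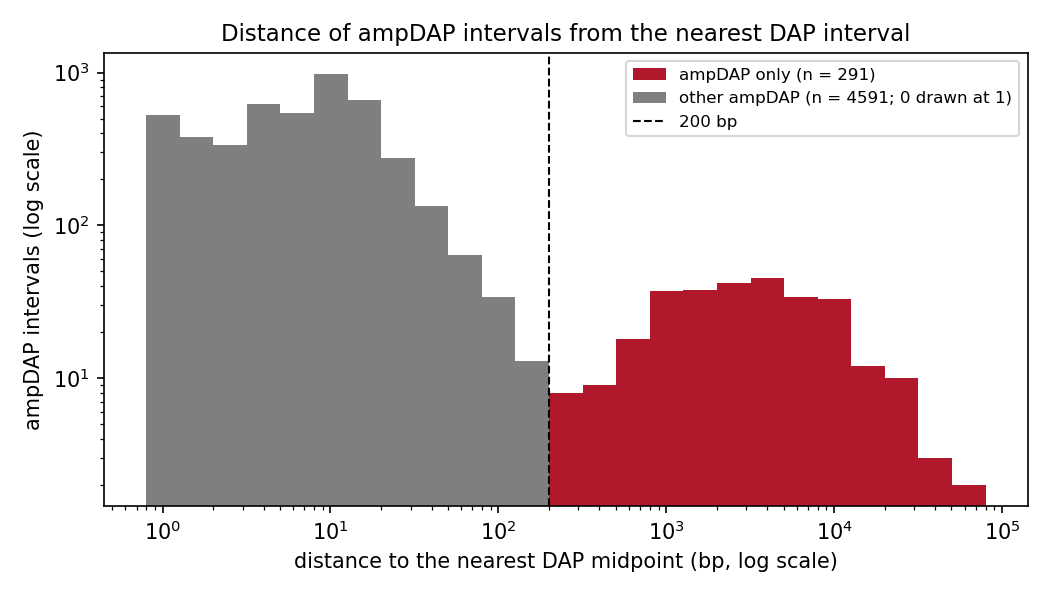
Number of ampDAP intervals (vertical axis, log scale) by distance from the nearest DAP midpoint in bp (horizontal axis, log scale); the dashed line is the limit of 200 bp. The 291 ampDAP-only intervals form a broad mound around their median of 3040 bp, apart from the 4591 other ampDAP intervals, whose median is 7 bp.

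The member farthest from the native-DNA list lies at chr5:12012490-12012889, 71041 bp from any DAP midpoint and 610 bp from the pseudogene AT5G32404. It borders the longest stretch of chromosome 5 that has no interval in either list. The next lies at chr2:9826-10225, at the upper end of chromosome 2, inside the RNA gene AT2G00340 and 58558 bp from a DAP midpoint. The third, at chr2:4065441-4065840, was 45121 bp from a DAP midpoint and 67 bp from the pseudogene AT2G10530. The remaining 2 of the 5 farthest lie on chromosome 4, at chr4:4501417-4501816 and chr4:2856811-2857210, at 38151 and 36138 bp. Of these 5, 4 lay within 2.5 Mb of the centre of the longest interval-free stretch of their chromosome, and 4 lay outside every protein-coding, pseudogene and RNA gene span. All positions are in TAIR10.

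Most ampDAP-only intervals lay outside protein-coding genes, whereas most other ampDAP intervals lay inside them. A gene span is the stretch from the first to the last annotated base of a gene, introns and untranslated parts included. The midpoint fell inside a protein-coding span for 64 of the 291 ampDAP-only intervals (22.0%, exact Clopper-Pearson 95% interval 17.4 to 27.2%), against 3262 of the 4591 other ampDAP intervals (71.1%, 69.7 to 72.4%). It fell outside every annotated span for 174 ampDAP-only intervals (59.8%, 53.9 to 65.5%) and for 1051 others (22.9%, 21.7 to 24.1%). Protein-coding spans make up 54.1% of the sequence and sequence outside any span 35.9%. The ampDAP-only share inside protein-coding spans was therefore below the share of sequence, and that of the other ampDAP intervals above it. Of the DAP intervals, beside which the other ampDAP intervals lie by the rule, 76.1% were inside protein-coding spans. These intervals of confidence cover counting error only and treat genomic intervals as independent.

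Pseudogene spans held 45 ampDAP-only midpoints (15.5%, 11.5 to 20.1%) and 197 other ampDAP midpoints (4.29%, 3.72 to 4.92%). The gene table has no class for transposable element genes. Its 16 entries named as retrotransposons, all of the SADHU family, stand among the 3917 pseudogenes, and 0 of them held an ampDAP-only midpoint. As all 3917 held only 45, a set of 16 is too small for a count of 0 to be read. How many of the other pseudogenes are transposable element genes cannot be read from the table. The 926 transcribed pseudogenes held 3 ampDAP-only midpoints (1.03%, 0.213 to 2.98%) and 25 others (0.545%, 0.353 to 0.803%). RNA genes held 5 (1.72%, 0.560 to 3.96%) and 56 (1.22%, 0.923 to 1.58%). For these small classes the intervals of ampDAP-only and other ampDAP shares overlapped.

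Read the other way, the share of ampDAP intervals that were ampDAP-only differed by class of sequence. Inside protein-coding spans it was 64 of 3326 (1.92%, 1.48 to 2.45%), below the 5.96% of the whole list. Inside pseudogene spans it was 45 of 242 (18.6%, 13.9 to 24.1%), and outside every span 174 of 1225 (14.2%, 12.3 to 16.3%). The density of ampDAP-only intervals was 0.993 per Mb of protein-coding span, 4.82 per Mb of pseudogene span and 4.07 per Mb outside spans. Over all sequence the order was the reverse for the other ampDAP intervals, at 50.6, 21.1 and 24.6 per Mb, and for the DAP intervals, at 266, 83.0 and 97.4 per Mb. Over all sequence DAP intervals were thus sparser where ampDAP-only intervals were denser, and the part of that sparseness in the result was not tested. The order of pseudogene spans and sequence outside spans depended on the chromosome region, as defined below. In near sequence the ampDAP-only densities, in the same order of classes, were 1.61, 5.16 and 6.19 per Mb. In far sequence they were 0.948, 3.53 and 3.18 per Mb.

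The nearest gene of any class was protein coding for 162 ampDAP-only intervals (55.7%, 49.8 to 61.5%) and for 4031 others (87.8%, 86.8 to 88.7%). It was a pseudogene for 99 (34.0%, 28.6 to 39.8%) and 320 (6.97%, 6.25 to 7.75%). Among intervals outside every span, the nearest gene was protein coding for 99 of 174 ampDAP-only intervals and 780 of 1051 others. It was a pseudogene for 54 of 174 ampDAP-only intervals and 125 of 1051 others.

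Position along the chromosome was examined next. On each chromosome the longest stretch without an interval in either list was found, and sequence within 2.5 Mb of its centre is called near, the rest far. These stretches are empty of DAP as well as ampDAP intervals and some members border them, so the definition shares its data with the choice of members and the near share of members is a description. Near sequence was poor in protein-coding genes, which made up 17.4% of it, and rich in pseudogenes, which made up 29.4%. In far sequence the shares were 63.9% and 2.10%. Of the ampDAP-only intervals 127 were near (43.6%, 37.9 to 49.6%), against 550 of the other ampDAP intervals (11.98%, 11.1 to 13.0%).

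The lower share inside protein-coding spans was present in both regions. By the rule, every other ampDAP interval lies within 200 bp of a DAP midpoint, so this is a description. Of the DAP intervals, 43.9% lay inside protein-coding spans in near and 79.7% in far sequence. They stood at 230 per Mb inside protein-coding spans and 52.0 outside every span in near sequence, and at 268 and 116 in far sequence. The part of these densities in the contrast was not tested. In near sequence, 7 of 127 ampDAP-only midpoints lay inside a protein-coding span (5.51%, 2.24 to 11.03%), against 213 of 550 other ampDAP midpoints (38.7%, 34.6 to 42.9%). In far sequence the counts were 57 of 164 (34.8%, 27.5 to 42.6%) and 3049 of 4041 (75.5%, 74.1 to 76.8%). Sequence outside every span held 61.4% of near ampDAP-only midpoints (52.4 to 69.9%) and 35.5% of near others (31.5 to 39.6%). In far sequence it held 58.5% of ampDAP-only midpoints (50.6 to 66.2%) and 21.2% of others (19.9 to 22.5%).

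For pseudogene spans, the intervals of ampDAP-only and other ampDAP shares overlapped within each region. Near the stretches, pseudogene spans held 38 ampDAP-only midpoints (29.9%, 22.1 to 38.7%) and 132 others (24.0%, 20.5 to 27.8%). Far from them they held 7 (4.27%, 1.73 to 8.60%) and 65 (1.61%, 1.24 to 2.05%). As a share of the far ampDAP intervals in each class, ampDAP-only intervals were 9.72% inside pseudogenes (7 of 72, 3.999 to 19.0%) and 1.84% inside protein-coding spans (57 of 3106, 1.39 to 2.37%), with intervals that did not overlap. Far sequence outside every span had a like share, 10.1% (96 of 952, 8.24 to 12.2%), so the higher share was not particular to pseudogenes. The share of pseudogenes as nearest gene remained apart in near sequence, with 88 of 127 ampDAP-only intervals (69.3%, 60.5 to 77.2%) and 231 of 550 others (42.0%, 37.8 to 46.2%).

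**Figure D2:**
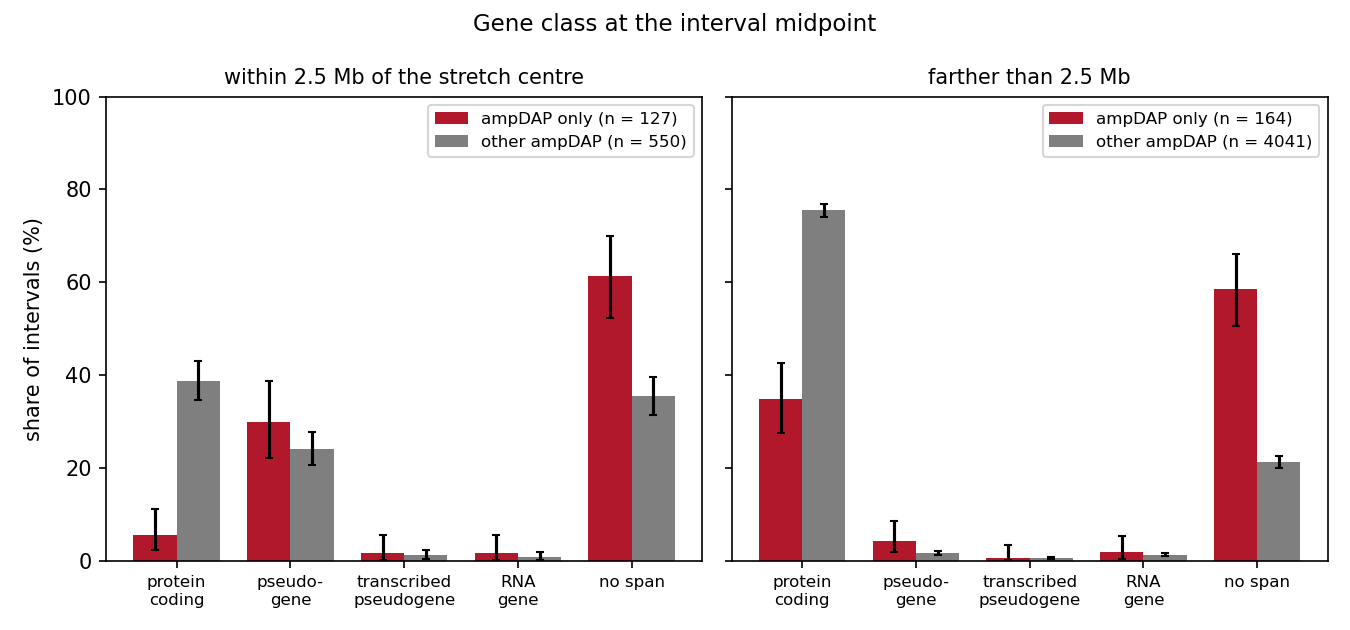
Share of intervals in percent (vertical axis) by class of the gene span that holds the midpoint (horizontal axis), for near sequence (left) and far sequence (right). Bars are ampDAP-only (red) and other ampDAP intervals (grey) with exact 95% intervals; protein-coding spans hold 5.51% of ampDAP-only against 38.7% of other midpoints near the stretches, and 34.8% against 75.5% far from them.

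The share inside protein-coding spans was lower for ampDAP-only than for other ampDAP intervals on 5 of 5 chromosomes. Protein-coding spans held between 8.33% (4 of 48, chromosome 4) and 32.7% (18 of 55, chromosome 1) of the ampDAP-only midpoints. They held between 68.6% (chromosome 2) and 72.8% (chromosome 1) of the other ampDAP midpoints. Chromosome 4 stood lowest for protein-coding spans and highest for sequence outside any span, at 77.1% (62.7 to 88.0%). Without chromosome 4, 94 of 243 ampDAP-only intervals were near (38.7%), against 127 of 291 with it (43.6%). The part of region in its shares was not tested. By chromosome, ampDAP-only intervals made up from 4.32% (55 of 1274, chromosome 1) to 7.55% (60 of 795, chromosome 2) of the ampDAP list. The intervals of these 2 shares did not overlap (3.27 to 5.58% and 5.81 to 9.61%). They are the lowest and highest of 5, picked after the values were seen. The shares were not split by region, so a difference between chromosomes was not tested.

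Distance from protein-coding genes was the next measure. The median distance from the midpoint to the nearest protein-coding span was 1135 bp for ampDAP-only intervals (quartiles 40 and 4775 bp) and 0 bp for the other ampDAP intervals (quartiles 0 and 106 bp). Within 1 kb of a span but outside it were 76 ampDAP-only intervals (26.1%, 21.2 to 31.6%) and 732 others (15.9%, 14.9 to 17.04%). Farther than 1 kb were 151 (51.9%, 46.0 to 57.8%) and 597 (13.0%, 12.04 to 14.01%), and farther than 5 kb were 72 (24.7%, 19.9 to 30.1%) and 178 (3.88%, 3.34 to 4.48%). The gene table gives no strand, so promoters cannot be told from downstream flanks. No annotated gene of any class was far away, since the median distance of ampDAP-only intervals to the nearest gene was 128 bp and the largest was 4600 bp.

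In far sequence, the ampDAP-only share of ampDAP intervals was 1.84% inside protein-coding spans (57 of 3106, 1.39 to 2.37%). It was 5.94% up to 200 bp from a span (18 of 303, 3.56 to 9.23%) and 8.23% over 200 and up to 500 bp (19 of 231, 5.02 to 12.5%). It was 12% over 500 and up to 1000 bp (24 of 200, 7.84 to 17.3%), 11.8% over 1000 and up to 2000 bp (25 of 211, 7.82 to 16.99%) and 14.1% over 2000 and up to 5000 bp (19 of 135, 8.69 to 21.1%). The first step, from inside a span to its first 200 bp of flank, separated non-overlapping intervals, while the neighbouring bins beyond it overlapped one another. Beyond 5 kb only 19 far ampDAP intervals existed, of which 2 were ampDAP-only. In near sequence the share was 3.18% inside spans (7 of 220, 1.29 to 6.45%) and 28.6% up to 200 bp from them (8 of 28, 13.2 to 48.7%). In the next bins it was 5.56% (1 of 18), 21.4% (6 of 28), 17.5% (7 of 40) and 25% (28 of 112), and beyond 5 kb 30.3% (70 of 231, 24.4 to 36.7%). The near bins outside spans thus showed no steady gradient, and their intervals overlapped.

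**Figure D3:**
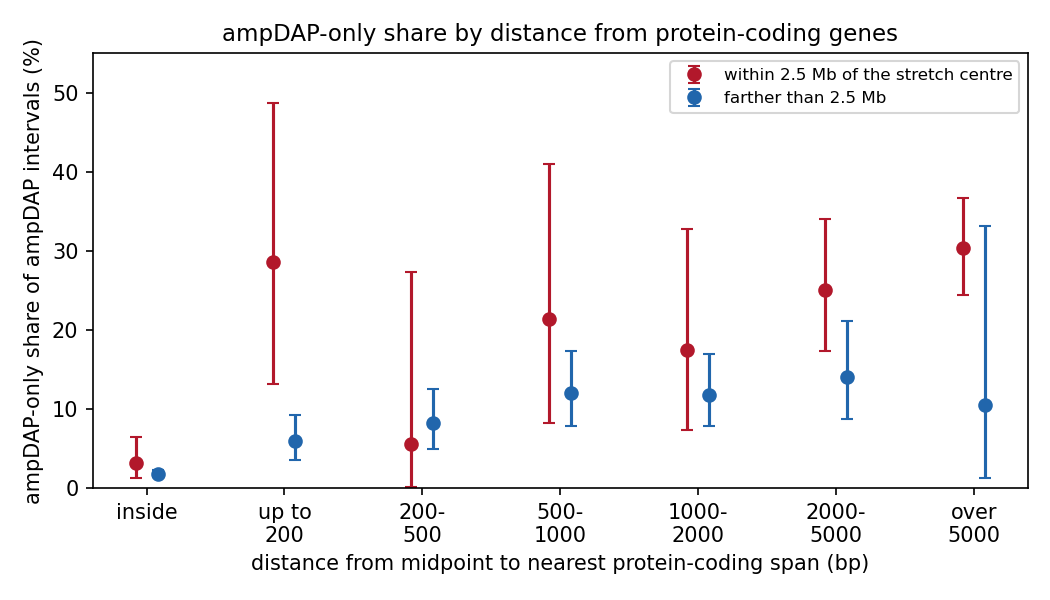
Share of ampDAP intervals that were ampDAP-only, in percent (vertical axis), by distance in bp from the midpoint to the nearest protein-coding span (horizontal axis); points are near (red) and far sequence (blue), with exact 95% intervals. The share is lowest inside spans, at 3.18% near and 1.84% far.

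The ampDAP-only share also varied with distance from the centre of the interval-free stretch. That centre was set from both lists, which also set the choice of members, so the shares by distance are a description. Outside protein-coding spans it was 37.0% within 1 Mb (64 of 173, 29.8 to 44.7%), 20.9% from 1 to 2 Mb (40 of 191, 15.4 to 27.4%) and 15.5% from 2 to 3 Mb (26 of 168, 10.4 to 21.8%). Farther out it was 12% from 3 to 5 Mb (30 of 250, 8.24 to 16.7%), 9.40% from 5 to 10 Mb (41 of 436, 6.83 to 12.5%) and 7.69% beyond 10 Mb (26 of 338, 5.09 to 11.1%). Inside protein-coding spans it was 11.5% within 1 Mb, from 3 of 26 intervals (2.45 to 30.2%), and 2.30% from 1 to 2 Mb (2 of 87, 0.280 to 8.06%). It was 2.29% from 3 to 5 Mb (12 of 523, 1.19 to 3.97%) and 1.53% beyond 10 Mb (18 of 1175, 0.910 to 2.41%). Beyond 10 Mb, in the chromosome arms, the shares outside and inside protein-coding spans still had intervals that did not overlap.

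**Figure D4:**
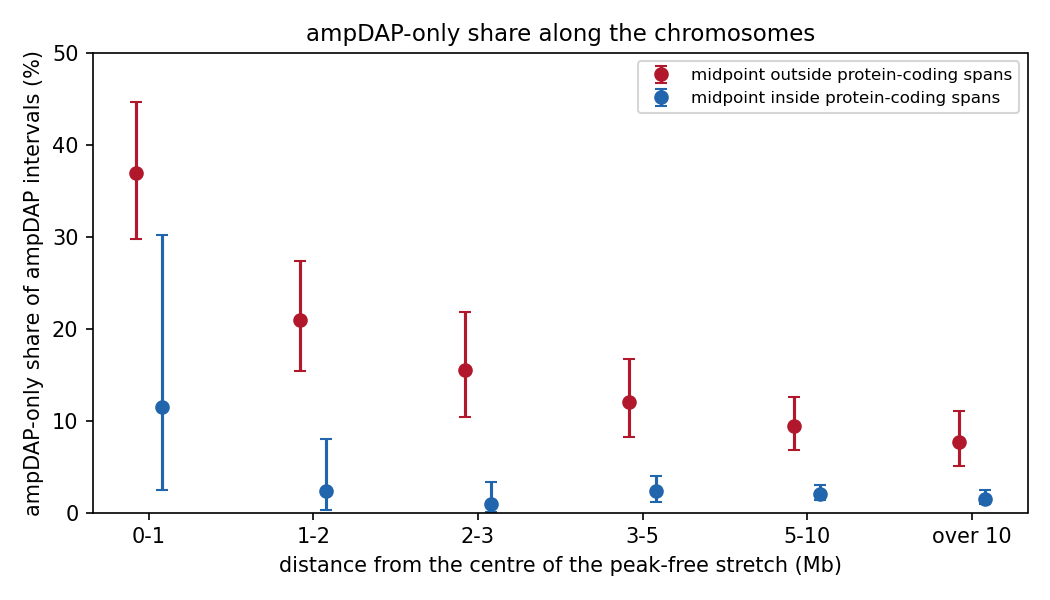
Share of ampDAP intervals that were ampDAP-only, in percent (vertical axis), by distance in Mb from the centre of the interval-free stretch (horizontal axis), for midpoints outside (red) and inside (blue) protein-coding spans, with exact 95% intervals. Outside spans it is 37.0% within 1 Mb and 7.69% beyond 10 Mb; inside spans it is 11.5% and 1.53%.

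The cover of pseudogene spans in the 20 kb around each midpoint gave a graded measure of the neighbourhood. Its median was 36.2% for near ampDAP-only intervals (quartiles 22.7 and 47.6%) and 20.4% for near others (quartiles 2.87 and 40.2%). In far sequence both medians were 0%. Within near sequence, 8 of 130 ampDAP intervals with no pseudogene in the window were ampDAP-only (6.15%, 2.69 to 11.8%). With a cover of 10 to 25% the count was 20 of 128 (15.6%, 9.81 to 23.1%), with 25 to 50% it was 66 of 237 (27.8%, 22.2 to 34.0%), and above 50% it was 26 of 95 (27.4%, 18.7 to 37.5%). In far sequence the share was 3.63% with no pseudogene (134 of 3688, 3.05 to 4.29%) and 8.99% with 25 to 50% cover (8 of 89, 3.96 to 16.9%), whose intervals overlapped.

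**Figure D5:**
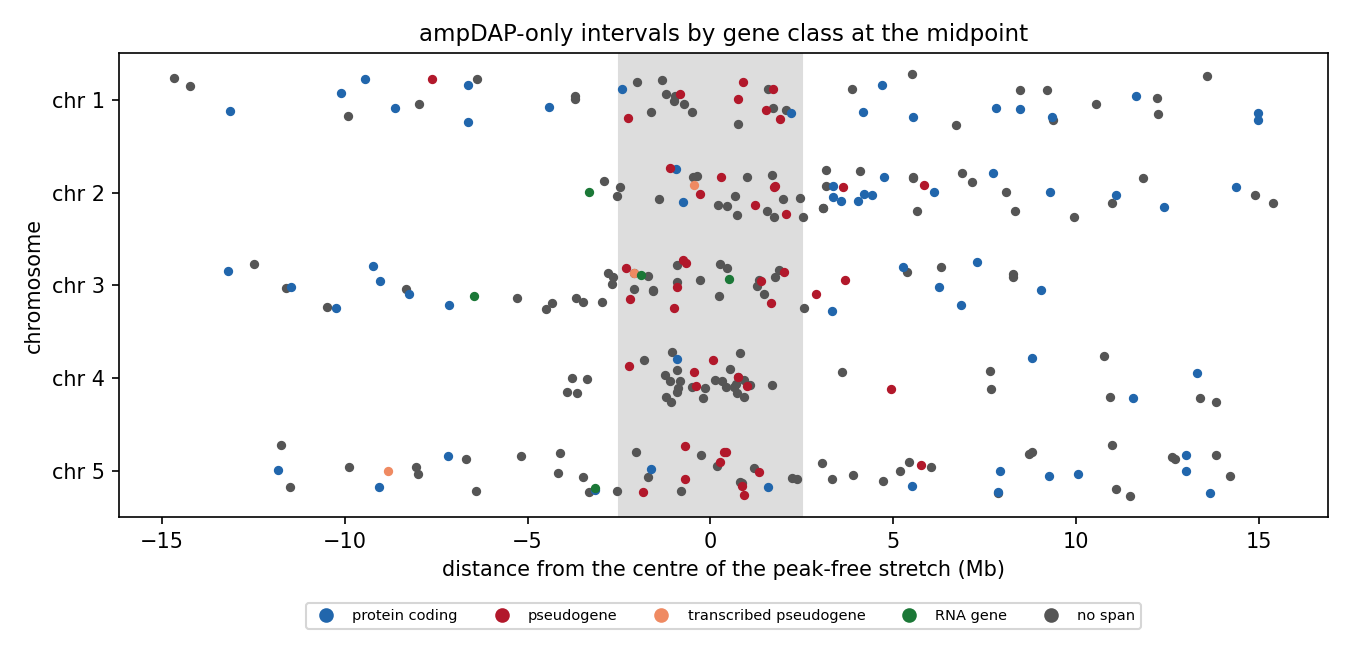
Position of each of the 291 ampDAP-only intervals as signed distance in Mb from the centre of the interval-free stretch (horizontal axis) on each chromosome (vertical axis, points spread at random within a row), coloured by class of the gene span at the midpoint; the grey band is near sequence. The band holds 127 of the intervals, 38 of the 45 in pseudogenes and 7 of the 64 in protein-coding spans. It also holds 7.36 of the 9.34 Mb of pseudogene span and 4.36 of the 64.5 Mb of protein-coding span.

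The members inside protein-coding spans lay nearer to the ends of those spans than other ampDAP intervals did. Of 64 such midpoints, 24 lay within 300 bp of a span end (37.5%, 25.7 to 50.5%), against 645 of 3262 others (19.8%, 18.4 to 21.2%). The median distance to the nearer end was 555 bp (quartiles 144 and 883 bp) for ampDAP-only and 702 bp (quartiles 363 and 1175 bp) for other intervals. The holding genes were of like length, with medians of 2867 and 2881 bp.

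Single genes illustrate these positions. A total of 177 protein-coding genes had an ampDAP-only midpoint inside the span or within 1 kb of it, and 68 of them have a symbol other than the locus tag. Of the 20 symbol-bearing genes whose span end lay closest to such a midpoint, 19 were in far sequence, 8 held the midpoint and 12 had it beside them. Of all 68, 65 were in far sequence, which holds 60.1 of the 64.5 Mb of protein-coding span. The values below give first the distance to the span end and then the distance to the nearest DAP midpoint, which belongs to the choice of the set.

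The 20 genes are given by kind of product for ease of reading, with no share of such genes over the genome, and the grouping was made after they were known. ETT (AT2G33860), an auxin response factor that patterns the carpels, had the interval chr2:14328837-14329236 with its midpoint 59 bp outside the span, and the nearest DAP midpoint was 4025 bp away. HAB2 (AT1G17550), a protein phosphatase that dampens abscisic acid signalling, held chr1:6034162-6034561 at 92 bp from its end, with a DAP midpoint at 584 bp. SNRK2.5 (AT5G63650), a kinase of the osmotic stress response, held chr5:25483581-25483980 at 18 bp from its end, and the nearest DAP midpoint was 9137 bp away. SR1 (AT2G22300), the calmodulin-binding transcription activator CAMTA3, held chr2:9471057-9471456 at 38 bp from its end, with a DAP midpoint at 3088 bp.

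Kinase genes of the 20 also included PBL1 (AT3G55450), a receptor-like cytoplasmic kinase that held an interval 189 bp from its end, and TOR (AT1G50030), the growth-controlling kinase, with an interval 134 bp outside. Their nearest DAP midpoints were 1304 and 2195 bp away. COR15B (AT2G42530), a cold-induced chloroplast protein, had an interval 20 bp outside its span, inside the gene AT2G42520, and a DAP midpoint at 944 bp. The defensin gene LCR66 (AT1G61070) held an interval 9 bp from its end, with a DAP midpoint at 2534 bp.

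Among genes of cell walls, sugars and transport, EXPA5 (AT3G29030), an expansin that loosens cell walls, had chr3:11013457-11013856 at 206 bp from its span and its nearest DAP midpoint at 5798 bp. TCH4 (AT5G57560), a touch-induced xyloglucan endotransglucosylase, had an interval 123 bp outside and a DAP midpoint at 1052 bp. SUS4 (AT3G43190), a sucrose synthase, was the only near gene of the 20, with chr3:15183938-15184337 at 33 bp from its span and a DAP midpoint at 3692 bp. UMAMIT29 (AT4G01430), an amino acid transporter, had chr4:588015-588414 at 89 bp from its span and its nearest DAP midpoint at 9545 bp. SNRK2.5, UMAMIT29 and EXPA5 were the 3 of the 20 whose ampDAP-only interval had 0 DAP midpoints within 5 kb.

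The remaining 8 were of mixed function. PUM4 (AT3G10360, a Pumilio RNA-binding protein) and SYNC1 (AT5G56680, an asparaginyl-tRNA synthetase) had intervals 25 and 5 bp outside their spans. YLS2 (AT3G51430, strictosidine synthase-like) had its interval 5 bp outside, EDA34 (AT4G00140, named for arrest of embryo sac development) 37 bp outside, and PAS1 (AT3G54010, an immunophilin-like protein) 76 bp outside. PDIL1-6 (AT3G16110, a protein disulfide isomerase), SMC3 (AT5G48600, a structural maintenance of chromosomes protein) and CYP71B12 (AT5G25130, a cytochrome P450) held theirs at 31, 64 and 117 bp from a span end. Their nearest DAP midpoints lay between 305 bp (SYNC1) and 3592 bp (CYP71B12) away.

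LFY itself was the only gene of the fixed lists with an ampDAP-only midpoint within 3 kb of its span. Across all 27444 protein-coding genes, 353 had such a midpoint (1.29%), 30.5% had another ampDAP midpoint and 81.0% had a DAP midpoint within 3 kb. Of 25 genes of flower development that include known LFY targets, 1 had it, 16 had another ampDAP midpoint and 23 had a DAP midpoint within 3 kb. Of 10 genes whose activity is known to depend on DNA methylation, such as the imprinted homeobox gene FWA, the F-box gene SDC and the demethylase gene ROS1, 0 had an ampDAP-only midpoint, 4 had another ampDAP midpoint and 9 had a DAP midpoint. Of 12 genes of the methylation machinery, such as MET1, CMT3 and DDM1, the counts were 0, 5 and 12. Lists of 10 to 25 genes are too short for counts of 0 or 1 to be read against 1.29%. Counts of genes with a DAP midpoint are also to be read against the high share over all genes.

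The LFY gene (AT5G61850) held the ampDAP-only interval chr5:24845943-24846342, whose midpoint lay 846 bp inside the end of the span with the higher coordinates, 3422 bp from any DAP midpoint. A second, chr5:24849148-24849547, lay 2359 bp beyond that end, inside the neighbouring gene AT5G61865, and was the member closest to the limit, 217 bp from a DAP midpoint. The DAP DNA came from plants that carry a LFY transgene. Whether the plant source bears on the interval inside LFY cannot be told apart from the kind of DNA.

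The pseudogenes and transcribed pseudogenes with an ampDAP-only midpoint numbered 48, each with 1, and 40 of them were near the stretches. Near sequence holds 7.36 of the 9.34 Mb of pseudogene span and 0.424 of the 1.01 Mb of transcribed pseudogene span. Of the 48, 11 also held a DAP midpoint and 6 held another ampDAP midpoint. The 10 with the midpoint closest to the middle of the span were AT1G40230, AT2G16010, AT3G43863, AT4G03800, AT2G06985, AT4G06735, AT2G07380, AT3G29600, AT5G29090 and AT2G05845. Their spans ran from 246 bp (AT2G06985) to 4542 bp (AT4G03800), and none of these 10 held a DAP midpoint or another ampDAP midpoint. AT1G40230 held chr1:15415142-15415541, 24658 bp from the nearest DAP midpoint, and AT4G06735 held chr4:4040337-4040736, 30824 bp from it. Only AT2G16010, with chr2:6965589-6965988, was in far sequence, 9107 bp from the nearest DAP midpoint.

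The ampDAP-only intervals were mostly single. Of the 291, 256 had no other ampDAP-only midpoint within 10 kb, and the other 35 formed 16 groups of at most 3. This is a description, since the count depends on the size of the set and no set of like size was compared. The 3 groups of 3 were all near the stretches. The shortest, at chr4:3068196-3078801, spanned 10.6 kb by AT4G06479 and AT4G06481 and held 0 DAP and 0 other ampDAP midpoints. The second, at chr3:12783044-12795967 by AT3G31410, AT3G31422 and AT3G31430, spanned 12.9 kb and held 3 DAP midpoints. The third, at chr2:5080583-5096578 by AT2G05815, AT2G12500 and AT2G12505, spanned 16.0 kb and held 1. The 2 tightest pairs lay far from the stretches, at chr1:10972226-10973227 by AT1G30840 and at chr3:21981036-21982093 by AT3G59470, and neither held a DAP midpoint between its members. Another ampDAP interval that was not ampDAP-only lay within 10 kb of 136 members (46.7%, 40.9 to 52.6%) and of 2695 other ampDAP intervals (58.7%, 57.3 to 60.1%).

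Members at different distances from the native-DNA list differed in where they lay, which is a description, since the choice of members used these distances. Of the 50 within 1 kb of a DAP midpoint, 16 were inside protein-coding spans (32.0%, 19.5 to 46.7%), 8 inside pseudogenes (16.0%, 7.17 to 29.1%) and 20 in near sequence (40.0%, 26.4 to 54.8%). Of the 146 over 1 kb and up to 5 kb away, 40 were inside protein-coding spans (27.4%, 20.3 to 35.4%), 12 inside pseudogenes (8.22%, 4.32 to 13.9%) and 41 in near sequence (28.1%, 21.0 to 36.1%). Of the 95 beyond 5 kb, 8 were inside protein-coding spans (8.42%, 3.71 to 15.9%), 25 inside pseudogenes (26.3%, 17.8 to 36.4%) and 66 in near sequence (69.5%, 59.2 to 78.5%). Outside spans, DAP intervals stood at 52.0 per Mb in near sequence and at 116 per Mb in far sequence, and the part of this in the shares by distance was not tested.

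Seen from the native-DNA list, the share of DAP intervals with an ampDAP midpoint within 200 bp also differed by class. It rests on the same lists and the same limit and is given as a description. It was 25.3% outside every span (1054 of 4166, 24.0 to 26.6%) and 25.5% inside pseudogenes (198 of 775, 22.5 to 28.8%), against 19.1% inside protein-coding spans (3265 of 17130, 18.5 to 19.7%). In far sequence alone it was 24.5% outside spans (23.1 to 26.0%) and 27.5% inside pseudogenes (21.9 to 33.7%), against 18.9% inside protein-coding spans (18.3 to 19.5%). In these comparisons the intervals did not overlap those of protein-coding spans. They did overlap for transcribed pseudogenes (16.3%, 11.001 to 22.8%) and RNA genes (20.9%, 16.3 to 26.2%). In near sequence the share was 29.6% outside spans (26.1 to 33.3%) and 24.7% inside pseudogenes (21.1 to 28.5%), against 21.5% inside protein-coding spans (19.0 to 24.2%), and the interval of pseudogenes overlapped that of protein-coding spans.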

How the data were processed

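LFY binding to naked DNA was profiled in 1 DAP and 1 ampDAP library, grouped by the labelled kind of DNA. The authors deposited 1 list of intervals per library (chromosome, start and end; 400 bp each). The submitters' processing notes name Bowtie2, SAMtools, MACS2 and the build TAIR10; threshold, control, resizing and pooling are not given in the sources used here. The lists carry no counts, so read depth is unknown.

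Midpoints were set against gene spans of the RefSeq gene table of TAIR10.1 (37899 genes on chromosomes 1 to 5), whose nuclear chromosomes are those of TAIR10. That table has neither strand nor a transposable element class, so upstream and downstream flanks were merged, distances were taken to the nearer span end, and classes are those of the table. Where spans overlapped, the class at the midpoint was protein coding first, then pseudogene, transcribed pseudogene and RNA gene; the nearest gene was the first in coordinate order among equally near spans of any class. Genome sequence, and with it base composition and motifs, was not analysed here. Shares carry exact Clopper-Pearson 95% intervals (scipy 1.17.1). Some steps were tested on simulated positions. Copies of DAP midpoints moved by known distances fell on the right side of the 200 bp limit. A planted distance from protein-coding spans was returned. Midpoints planted in a span were found, but each was searched only among spans of its own class. The order among overlapping classes, the nearest gene of any class, the regions, the cover and the grouping were not tested.

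Named genes were the 20 symbol-bearing protein-coding genes closest to a member, the 10 pseudogenes with most members (ties by distance to the middle), listed genes within 3 kb, the 5 farthest members, the 3 on either side of the limit and the 5 largest groups. Members, lists and measures were chosen with earlier results of these data known. The window of pseudogene cover, the position within spans and the share of DAP intervals by class were added after the data had been seen. Alternatives varied the limit, the flank, the region, the overlap with spans and the chromosomes included.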

Additional observations from a re-analysis of the deposited data

How the results depend on the processing

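Of 202 values recomputed under alternatives, 177 fell inside the main value's 95% interval and 25 outside it. Of 69 contrasts between ampDAP-only and other ampDAP shares that an alternative moved, 0 changed sign. Their size did vary. In near sequence, the contrast inside protein-coding spans was -12.9 percentage points with regions of 1 Mb and -46.5 with 5 Mb. The 1 Mb value rests on few midpoints, 3 of 67 ampDAP-only and 23 of 132 other ampDAP. With the limit at 1 kb, ampDAP-only intervals were 4.94% of the list. Leaving out chromosome 1, other ampDAP intervals had 5.13% inside pseudogenes, 86.7% nearest to a protein-coding gene, 8.24% nearest to a pseudogene and 13.7% near. When any overlap of the 400 bp with a span counted, protein-coding spans took 30.9% of ampDAP-only and 77.7% of other ampDAP intervals, with 45.7% and 82.5% in far sequence, and 11.8% of near ampDAP-only intervals. No span then took 46.0% and 15.3%. With a flank of 500 bp, 15.8% of ampDAP-only and 11.6% of other intervals lay in it and 62.2% and 17.3% farther; with 3 kb, 43.3% and 22.7% lay in it and 34.7% and 6.23% farther. With regions of 1 Mb, 23.0% of ampDAP-only and 2.88% of other intervals were near, and with 5 Mb, 61.5% and 31.6%. Another member lay within 50 kb of 31.6% of members. These shifts follow from the wider or narrower definitions; the cause of the shift without chromosome 1 was not tested.

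No paired analysis was possible because 1 library stands for each DNA type, which also left no replicate to leave out. A stricter threshold on peak strength and alternatives on sequence were not run, since the lists give no strength and genome sequence was not used here. Unknown depth and threshold limit every statement on absence: a site missing from the DAP list is not shown to be unbound on native DNA.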

Other observations

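Among the other genes with a symbol near ampDAP-only intervals, the following were picked after their values were seen. SUC2 (AT1G22710), the sucrose-proton symporter that loads the phloem, was the only one of them with a pair of ampDAP-only intervals. Of these, chr1:8031495-8031894 lay inside its span, 1108 bp from the nearer end, and chr1:8029831-8030230 lay 556 bp outside it, inside AT1G22700. They were 3391 and 1727 bp from a DAP midpoint. NPQ4 (AT1G44575), which encodes the photosystem II subunit PsbS of photoprotective quenching, held chr1:16870738-16871137 in near sequence, 14392 bp from any DAP midpoint. The nearby fucosyltransferase genes FUT10 (AT2G15350) and FUT5 (AT2G15370) each held an ampDAP-only interval, at 239 and 286 bp from a span end.

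A further 3 of the 68 genes with a symbol were picked in the same way, and no theme is read from them. AGL71 (AT5G51870), a MADS-box gene related to SOC1, held chr5:21086939-21087338, 2799 bp from the nearest DAP midpoint. NGA3 (AT1G01030), a B3 factor of style development, had chr1:10816-11215 at 633 bp from its span and 503 bp from a DAP midpoint. LSH3 (AT2G31160), a gene of organ boundaries, had chr2:13276516-13276915 at 994 bp from its span and 3670 bp from a DAP midpoint. The 5 RNA genes with an ampDAP-only midpoint were AT2G00340, AT3G00600 and AT3G06365, listed as miscellaneous RNA, and AT3G03985 and AT5G03925, listed as long non-coding RNA.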
